A study of Homo sapiens with 12 samples.

Results

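The 10 Krueppel-like factor (KLF) genes KLF2, KLF3, KLF4, KLF6, KLF7, KLF9, KLF10, KLF11, KLF12 and KLF13 were followed through 8 lists of chromatin binding regions. A region was assigned to a gene when its summit, the base of highest signal, lay in the gene's RefSeq span or within 50 kb of it. By this rule 49 of 11908 regions belonged to the 10 genes, out of 19866 protein-coding genes in all. They formed 23 sites, a site being a set of overlapping regions from any list. The genes were selected on the regions called in these same lists, with earlier results of them known, so their counts, places and fold enrichments are a description and no test was made of them.

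Binding was mapped by chromatin immunoprecipitation and sequencing (ChIP-seq) in cultures of SUPT-1, a human leukaemia line of T-cell origin, and the study asks about STAT5 and steroid resistance in T-cell acute lymphoblastic leukaemia. The antibody recognised either NR3C1, the glucocorticoid receptor, or the transcription factor STAT5B. In every group a doxycycline-inducible STAT5B transgene was switched on, carrying the mutation N642H in one line (N642H line) and the wild-type sequence in the other (WT line). Each line was given prednisolone, a synthetic glucocorticoid, at 250 µg per ml for 16 hours, or was left untreated. The 8 ChIP libraries were thus NR3C1 in N642H cells with prednisolone, NR3C1 in WT cells with prednisolone, STAT5B in N642H cells with prednisolone, STAT5B in WT cells with prednisolone, and the same antibody and line combinations in untreated cells. Every group held 1 library, so a difference between groups had no replicate check. Untreated cells thus had doxycycline and no prednisolone, and cells without the transgene were not analysed here. The labels say neither whether a line was 1 clone nor whether the antibody told the transgene's STAT5B from the cells' own. The lists held 2888 and 995 regions for NR3C1 with prednisolone (N642H and WT), 446 and 766 for STAT5B with prednisolone, 4542 and 2267 for untreated STAT5B, and 2 and 2 for untreated NR3C1.

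KLF proteins are transcription factors that bind GC-rich and CACCC-type sequences through zinc fingers at their C-terminal end, and they act as activators or as repressors depending on the cofactors they recruit. In lymphocytes the family is best known for controls of quiescence and trafficking. KLF9 is a classical glucocorticoid-induced gene in many cell types, and KLF13 was described in T lymphocytes as an activator of the chemokine gene CCL5. NR3C1 enters the nucleus after it binds a glucocorticoid and then occupies response elements in DNA, while STAT5 proteins do so after cytokine-driven phosphorylation.

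KLF13 and KLF9 held the strongest NR3C1 regions among the 10 genes, and together they carried 30 of the 49 regions. NR3C1 regions lay at 5 genes in the N642H line (KLF6, KLF7, KLF9, KLF12 and KLF13) and at 3 in the WT line (KLF7, KLF9 and KLF13), all with prednisolone. In the background, 16.8% of all protein-coding genes were linked to an NR3C1 region by the same rule in the N642H line and 6.49% in the WT line. Neither untreated NR3C1 list held a region at any of the 10 genes, where 0.0453% of all genes were linked in each. STAT5B regions with prednisolone lay at 2 genes in the N642H line (KLF9 and KLF13; background 4.77%) and at 1 in the WT line (KLF13; background 9.6%). Untreated STAT5B regions lay at 6 genes in the N642H line (KLF6, KLF7, KLF9, KLF10, KLF12 and KLF13; background 39.5%) and at 4 in the WT line (KLF6, KLF7, KLF10 and KLF13; background 23.2%). KLF2, KLF3, KLF4 and KLF11 had no region in any list, and 48.3% of all genes had at least 1 in some list. NR3C1 was called at 5 of the 10 genes in either line (17.4% of all genes) and at 3 in both lines (5.94%). STAT5B was called at 6 genes in any list (43.8% of all), at 4 in both untreated lists (19.4%) and at 1 in both prednisolone lists (2.82%). Regions of both factors, in any of the lists and not necessarily overlapping, lay at 5 genes (12.8% of all). As the genes were chosen with such results in view, nothing further is read from these shares.

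**Figure D1:**
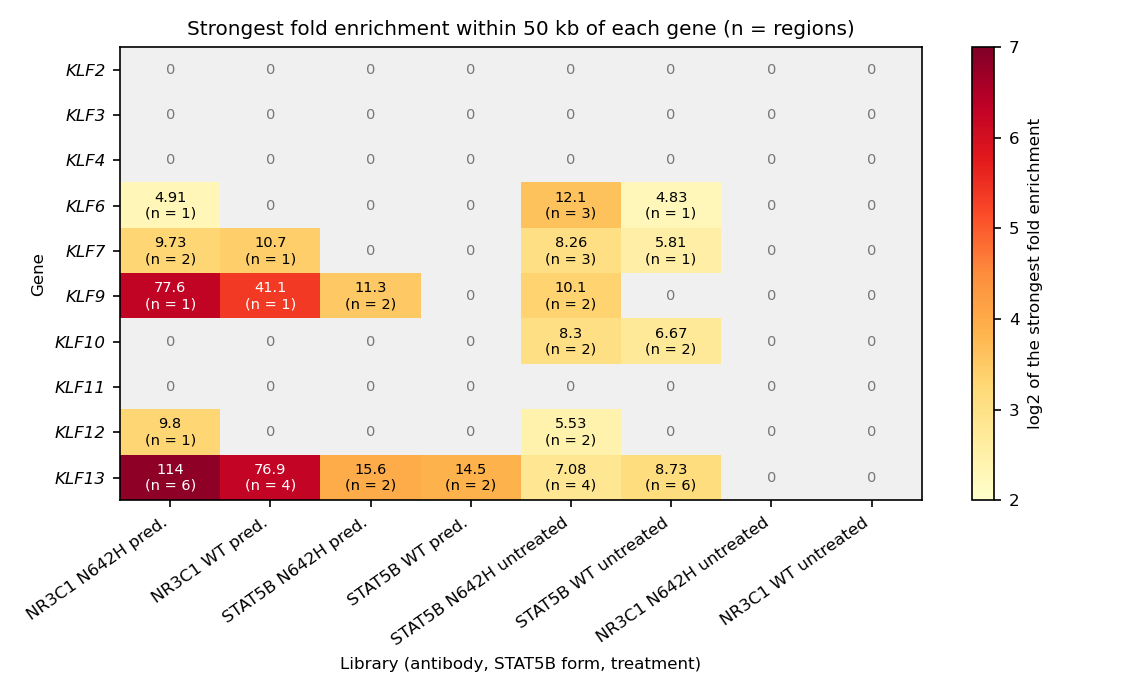
Strongest fold enrichment at each gene (rows) in each library (columns), with the number of regions within 50 kb in brackets and 0 where no region was called. The colour runs on a log2 scale, and the highest values stand at KLF13 (114 in N642H cells and 76.9 in WT cells, NR3C1 with prednisolone) and at KLF9 (77.6 and 41.1).

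Fold enrichment is the authors' ratio of ChIP pileup to local background at the summit, and q is the adjusted p of their peak caller. Both belong to 1 list and describe a region within it. The number of ChIP tags over each summit was recovered from the deposited fold and −log10 p for all 49 regions and ranged between 8 and 267. The bracketed intervals below are exact Poisson 95% intervals of these tag numbers and cover counting error only. Local background at the 49 regions was at most 4.44 times the lowest recurrent background of the same list.

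At KLF13 (gene ID 51621, chromosome 15, 31326835 to 31435665) the leading site lay inside the gene, 39.1 kb downstream of its start site. NR3C1 with prednisolone gave a fold of 114 in the N642H line (chr15:31365625-31366291, −log10 q 493), which ranked 2 of 2888 regions. In the WT line the fold was 76.9 (chr15:31365576-31366197, −log10 q 250.4), which ranked 1 of 995. These rested on 267 tags (236 to 301) in N642H cells and 161 tags (137 to 188) in WT cells. STAT5B was called at the same place with prednisolone in both lines. Its fold was 15.6 in N642H cells (23 tags, 14.6 to 34.5, rank 7 of 446) and 14.5 in WT cells (33 tags, 22.7 to 46.3, rank 3 of 766). Without prednisolone the site was near the bottom of the WT list of STAT5B, with a fold of 4.14 on 11 tags (5.49 to 19.7) and rank 2189 of 2267, and it was not called in N642H cells. The weakest of 250 regions sampled from that untreated N642H list had 9 tags. The 5 summits fell within 14 bp of each other, and the STAT5B summits with prednisolone were 1 bp apart between the lines.

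KLF13 carried 24 regions at 8 sites over its 109 kb span and the 50 kb on either side. Over all lists, 4 of 19866 protein-coding genes, KLF13 among them, had at least 24 regions. For NR3C1 it had 10 regions in the 2 prednisolone lists together, a number that 10 genes reached. Neither comparison was adjusted for the length of the genes. Of the 8 sites, 6 held both factors, counted over both lines and treatments, and the others held STAT5B alone. In the same line with prednisolone, both were called just upstream of the start, and at 34.7 and 39.1 kb inside the gene. At the rest of these 6 sites, STAT5B was called in untreated cells alone.

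A site just upstream of the KLF13 start was called in 5 lists, with summits 421 to 459 bp before the start and within 38 bp of each other. NR3C1 with prednisolone had a fold of 27.3 there in the N642H line (49 tags, 36.3 to 64.8) and 12.6 in the WT line (27 tags, 17.8 to 39.3). STAT5B in the N642H line had a fold of 6.48 with prednisolone (8 tags) and 5.33 without it (19 tags). STAT5B in the WT line was not called with prednisolone and had a fold of 5.52 without it (15 tags). Thus the promoter-proximal STAT5B call was kept in one line and missing in the other, on tag numbers that were low throughout. The weakest of 250 regions sampled from the STAT5B lists with prednisolone had 6 tags in N642H cells and 9 in WT cells. The 8 tags of the N642H call were thus fewer than those of the weakest sampled WT region. A further site 917 bp upstream had NR3C1 in N642H cells (fold 9.17) and untreated STAT5B in WT cells (fold 4.16), with summits 1 bp apart. The STAT5B region there rested on 15 tags and ranked 1967 of 2267. Its local background was 4.44 times the lowest recurrent background of its list. A site 1.3 kb inside the gene had NR3C1 (fold 8.40) and untreated STAT5B (fold 7.08), both in N642H cells, with summits 224 bp apart.

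The site 34.7 kb inside KLF13 was called in every prednisolone and untreated list of the WT line other than untreated NR3C1. There NR3C1 with prednisolone had a fold of 11.9 in N642H cells (27 tags) and 8.99 in WT cells (18 tags). STAT5B with prednisolone was not called in N642H cells and had a fold of 7.29 in WT cells (16 tags). Untreated STAT5B had a fold of 5.94 in N642H cells (16 tags) and 8.73 in WT cells (16 tags, rank 223 of 2267), the strongest STAT5B region of untreated WT cells at any of the 10 genes. The site 26.5 kb inside the gene had NR3C1 with folds of 8.04 in N642H cells and 7.96 in WT cells, and untreated STAT5B in WT cells alone (fold 6.70). The 2 sites with STAT5B alone were each in 1 list: 18331 bp upstream in untreated N642H cells (fold 6.60) and 60.7 kb inside the gene in untreated WT cells (fold 5.13).

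**Figure D2:**
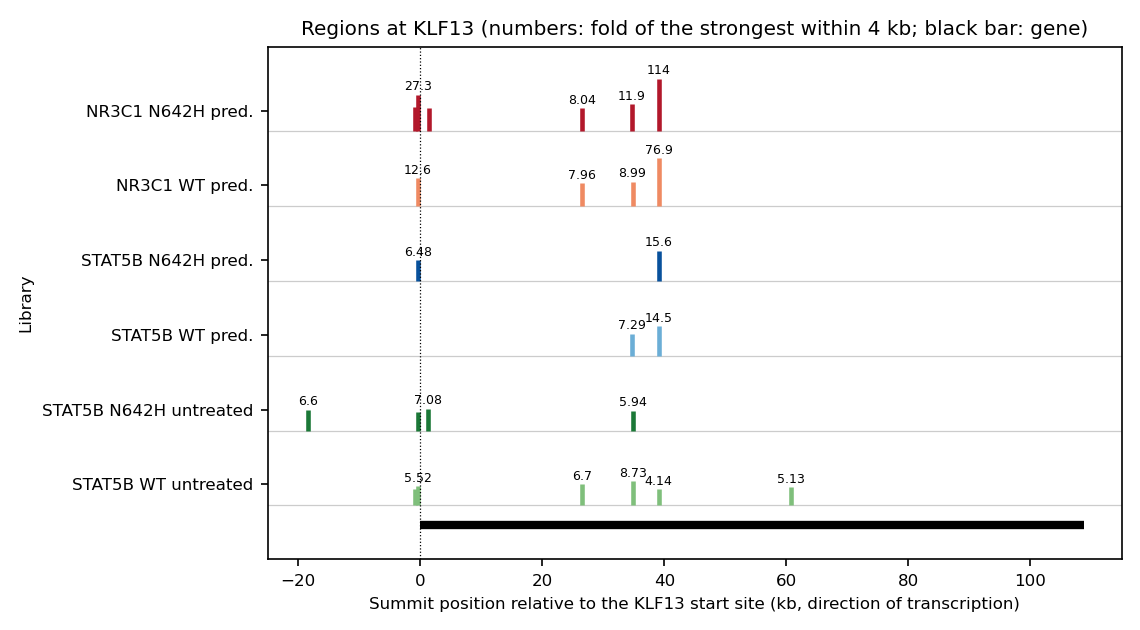
Summits at KLF13 by distance from its start site in kb (horizontal axis) for the 6 long lists (rows). Bar height is proportional to log2 fold enrichment, numbers give the strongest fold among bars within 4 kb, and the black bar is the gene: the site at 39.1 kb reaches 114 and 76.9 for NR3C1 and 15.6 and 14.5 for STAT5B with prednisolone.

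KLF9 (gene ID 687, chromosome 9, 70384604 to 70414657) encodes a repressor whose transcription glucocorticoids are known to induce. Its 6 regions fell in 1 broad site upstream of the start, inside the span of the lncRNA gene KLF9-DT. NR3C1 with prednisolone covered 1707 bp in the N642H line (chr9:70418796-70420502, fold 77.6, −log10 q 404, rank 7 of 2888) and 1548 bp in the WT line (chr9:70418946-70420493, fold 41.1, −log10 q 103, rank 37 of 995). The summits rested on 252 tags (222 to 285) in N642H cells and 75 tags (59.0 to 94.0) in WT cells.

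The NR3C1 summit of the KLF9 site differed between the lines, although each line's NR3C1 region covered both summit positions. The signal away from a region's own summit is not given, so the height at the other position is not known. The NR3C1 summit lay 4607 bp upstream of the start in N642H cells and 5461 bp upstream in WT cells, 854 bp apart. STAT5B was called at KLF9 in the N642H line alone, with 2 regions in each treatment. With prednisolone its folds were 11.3 (15 tags) at 4546 bp and 6.87 (8 tags) at 5655 bp upstream. Without prednisolone they were 10.1 (25 tags) at 4623 bp and 5.13 (10 tags) at 5281 bp upstream. The stronger STAT5B summit lay 61 bp (prednisolone) and 16 bp (untreated) from the NR3C1 summit of N642H cells, and the weaker ones lay 194 bp and 180 bp from the NR3C1 summit of WT cells. At the stronger position the STAT5B regions of both treatments overlapped by 257 bp, and at the weaker one they lay 165 bp apart. No STAT5B region of the WT line lay within 50 kb of KLF9 in either treatment. In the WT lists of STAT5B the weakest of 250 sampled regions had 9 tags with prednisolone and 8 tags without it.

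**Figure D3:**
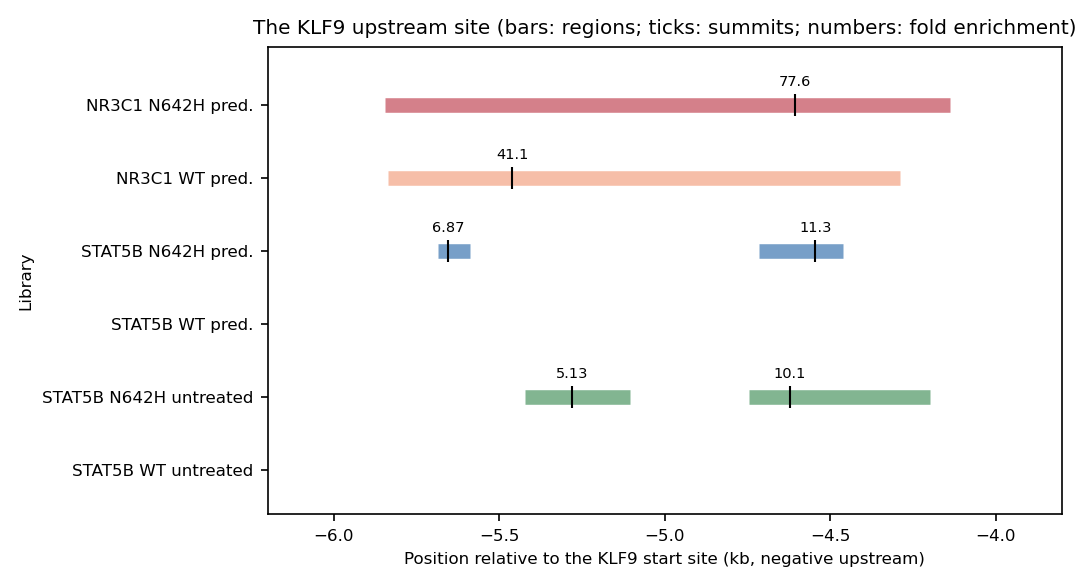
Regions upstream of KLF9 by distance from its start site in kb, with the library in rows, bars for the extent of each region, ticks for its summit and numbers for its fold enrichment. The NR3C1 summit stands at the right-hand position in N642H cells (77.6) and at the left-hand one in WT cells (41.1), and the rows of STAT5B in WT cells are empty.

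KLF7 (gene ID 8609, chromosome 2, 207074137 to 207173851) is best known from neuronal development and carried 7 regions at 5 sites. NR3C1 was called with prednisolone in both lines at a RefSeq start site that lies within the gene span, downstream of the 3 other start sites of the table. Its fold was 9.73 in N642H cells (chr2:207133970-207134418, 25 tags, rank 916 of 2888) and 10.7 in WT cells (chr2:207133969-207134094, 24 tags, rank 331 of 995). Their summits were 45 bp apart, 56 and 101 bp past this start. STAT5B was not called on this promoter. The nearest STAT5B region was an untreated one of WT cells (fold 5.81, 15 tags), whose summit lay 289 bp from the NR3C1 summit of WT cells, with 170 bp between the regions. Near the gene's 3′ end NR3C1 of N642H cells (fold 7.39, 16 tags) and untreated STAT5B of N642H cells (fold 8.26, 30 tags) had summits 9 bp apart. Untreated N642H cells had another STAT5B region on an upstream KLF7 promoter (fold 5.29, 14 tags), 50 bp before its start, and one 9776 bp before the internal start site (fold 5.91, 16 tags).

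The sequences of both KLF7 promoters are shown because regions of different factors covered them. RefSeq promoters of 250 bases before and 50 after a start site (GRCh38.p14) were at hand for 8 of the 10 genes, 15 promoters in all. Of these, 5 were touched by a region. The first sequence is the internal promoter on the minus strand (chr2:207134088-207134387), which the NR3C1 region of N642H cells covered completely and that of WT cells by 7 bp. Capitals mark the letters TTCNNNGAA, the palindrome that STAT proteins recognise, 72 bp before the start. In the second, the upstream promoter on the minus strand (chr2:207166807-207167106), capitals mark the 180 bp inside the untreated STAT5B region of N642H cells.
KLF7 internal promoter: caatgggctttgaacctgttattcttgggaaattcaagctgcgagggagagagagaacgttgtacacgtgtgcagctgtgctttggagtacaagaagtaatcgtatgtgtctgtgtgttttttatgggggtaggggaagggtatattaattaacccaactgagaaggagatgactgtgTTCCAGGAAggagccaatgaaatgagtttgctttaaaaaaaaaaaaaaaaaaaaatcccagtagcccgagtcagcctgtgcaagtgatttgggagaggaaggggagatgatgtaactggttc
KLF7 upstream promoter: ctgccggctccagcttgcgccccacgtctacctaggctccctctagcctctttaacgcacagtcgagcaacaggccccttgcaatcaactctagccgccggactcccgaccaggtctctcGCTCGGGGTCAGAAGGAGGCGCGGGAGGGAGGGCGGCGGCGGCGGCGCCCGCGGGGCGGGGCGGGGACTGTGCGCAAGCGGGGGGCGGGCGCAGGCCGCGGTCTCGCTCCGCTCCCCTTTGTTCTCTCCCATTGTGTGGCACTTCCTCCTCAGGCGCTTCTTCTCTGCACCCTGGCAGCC

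The internal KLF7 promoter was the 1 member promoter with TTCNNNGAA, searched on both strands, which 7.66% of 35116 RefSeq promoters of the same length held. The glucocorticoid response element, with the arms GNACA and TGTNC and 3 bases between them, was found in 0 of the 15 promoters and in 0.390% of all, and the CACCC-type family motif GGGNGTGG in 3 of the 15 (KLF6, KLF7 and KLF13) and in 17.2% of all. Both were searched on both strands, and no matches of different patterns overlapped in these promoters. A match is a string of letters and not a measured site, and the windows leave out the distal regions at KLF13 and KLF9, whose sequence was not used here.

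KLF6 (gene ID 1316, chromosome 10, 3775996 to 3785209) is a broadly expressed activator with tumour-suppressor activity. Untreated STAT5B was called at its promoter in both lines, with a fold of 6.49 in N642H cells (12 tags, 163 bp before the start) and 4.83 in WT cells (13 tags, 292 bp before the start). Further out, 25331 bp upstream, untreated N642H cells had a STAT5B fold of 12.1 (chr10:3810424-3810683, 24 tags, rank 200 of 4542), the highest STAT5B fold of untreated cells at the 10 genes. NR3C1 with prednisolone was called there in N642H cells with a fold of 4.91 (15 tags, rank 2638 of 2888). The 2 regions overlapped by 140 bp, with summits 186 bp apart. Between the promoter and these overlapping regions, 20956 bp upstream, a site held untreated STAT5B in N642H cells (fold 6.17). No STAT5B region was called at KLF6 with prednisolone in either line.

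KLF12 (gene ID 11278, chromosome 13, 73686089 to 74306045) encodes a repressor first described for its action on the AP-2alpha gene and was the longest of the 10 genes, at 620 kb. It held 3 regions, each in 1 list of the N642H line. NR3C1 with prednisolone had a fold of 9.80 (chr13:74087001-74087188, 21 tags, rank 1048 of 2888), 46863 bp from the nearest start site. Untreated STAT5B had folds of 5.53 (13 tags), 36259 bp from a start site, and 5.51 (12 tags), 196 bp before an internal start site.

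The KLF6 and KLF12 promoters touched by untreated STAT5B are shown from the minus strand. Capitals mark the bases inside STAT5B regions, which are 133 bp for KLF6 (chr10:3785160-3785459, the 74 bp of the WT region included) and 97 bp for the internal KLF12 promoter (chr13:74134355-74134654, N642H region). GC made up 70.7% of the KLF6 window and 72.3% of the KLF12 window.
KLF6 promoter: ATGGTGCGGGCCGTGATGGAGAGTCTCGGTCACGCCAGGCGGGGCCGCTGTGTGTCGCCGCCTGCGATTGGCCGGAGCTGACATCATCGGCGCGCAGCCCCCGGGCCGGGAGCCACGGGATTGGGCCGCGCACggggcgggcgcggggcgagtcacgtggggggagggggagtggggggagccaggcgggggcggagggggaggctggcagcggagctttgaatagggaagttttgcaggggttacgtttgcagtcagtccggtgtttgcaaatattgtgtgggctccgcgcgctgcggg
KLF12 internal promoter: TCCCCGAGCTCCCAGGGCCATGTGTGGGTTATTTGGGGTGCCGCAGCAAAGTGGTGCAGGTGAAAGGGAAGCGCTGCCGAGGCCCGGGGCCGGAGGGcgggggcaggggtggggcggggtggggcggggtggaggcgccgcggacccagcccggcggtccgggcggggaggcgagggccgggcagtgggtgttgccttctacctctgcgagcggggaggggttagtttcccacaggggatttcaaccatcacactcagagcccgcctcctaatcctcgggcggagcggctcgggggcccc

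**Figure D4:**
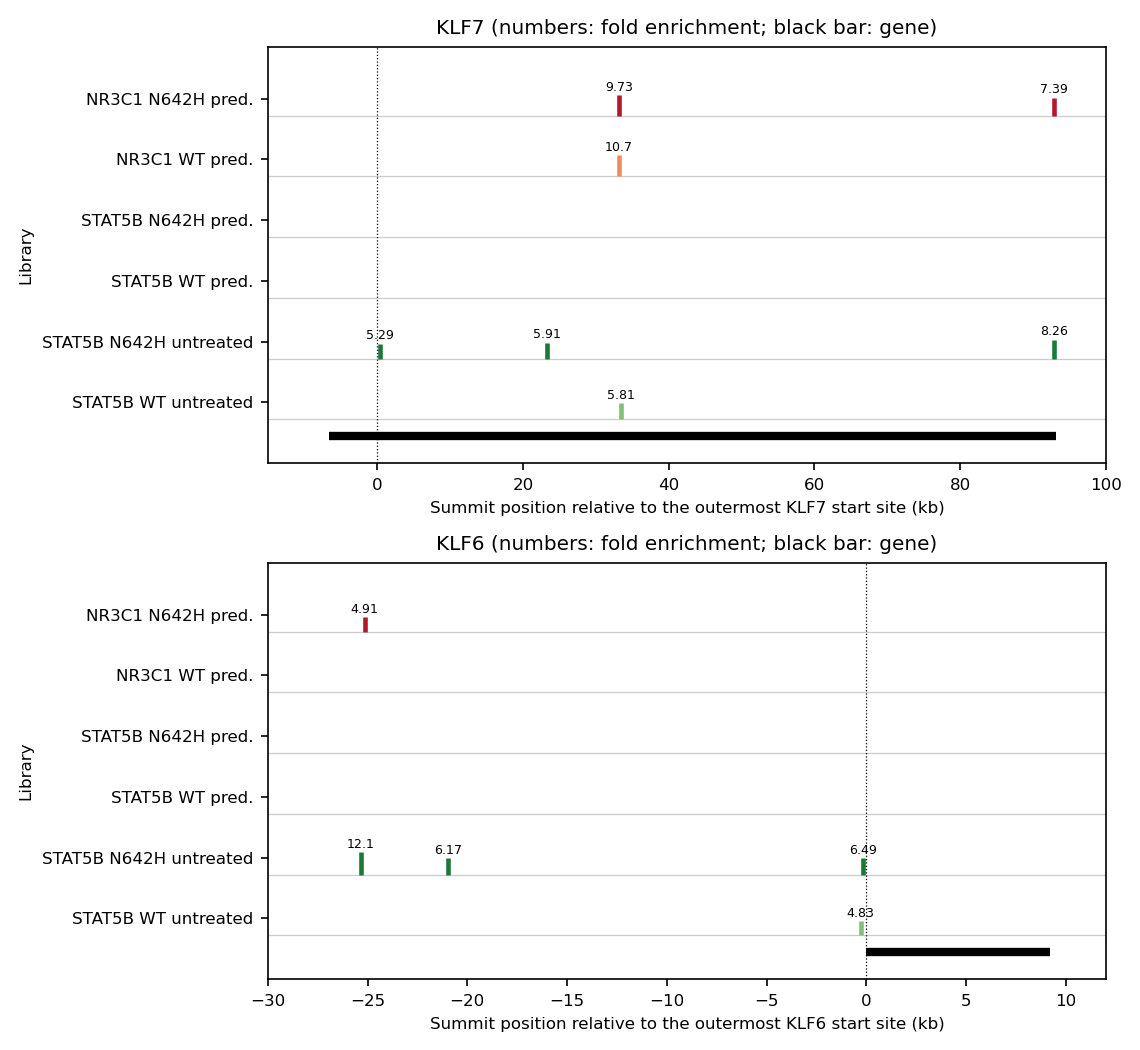
Summits at KLF7 (top) and KLF6 (bottom) by distance from the outermost start site in the table, in kb, for the 6 long lists (rows). Bar height is proportional to log2 fold enrichment, numbers give the fold and black bars are the genes: the rows of STAT5B with prednisolone are empty at both genes, and the tallest bar at KLF6 is untreated STAT5B of N642H cells (12.1).

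KLF10 (gene ID 7071, chromosome 8), known as an early gene of TGF-beta signalling, carried untreated STAT5B regions and none of NR3C1. In N642H cells the folds were 8.30 inside the gene (18 tags, rank 851 of 4542) and 7.88 just outside it, 374 bp from its nearer boundary (15 tags). In WT cells they were 5.68 inside the gene (9 tags) and 6.67 just outside it, 399 bp from the same boundary (12 tags). The outside regions overlapped between the lines, with summits 25 bp apart. Those inside the gene lay 430 bp from each other and did not overlap. With prednisolone neither line had a region of either factor within 50 kb of KLF10.

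The other 4 genes were listed in no library. KLF2 keeps T cells quiescent and controls their trafficking, and the nearest region of any list lay 213 kb away (untreated STAT5B in N642H cells, fold 4.94). For KLF3, a repressor that works through CtBP, the nearest lay 155 kb away (untreated STAT5B in N642H cells, fold 4.86). For KLF4, one of the factors used to reprogramme cells to pluripotency, it lay 202 kb away (untreated STAT5B in WT cells, fold 5.65). For KLF11, a relative of KLF10, it lay 65.7 kb away (untreated STAT5B in N642H cells, fold 3.73), nearer to RRM2. NR3C1 regions were at least 414 kb from all 4 genes. The outermost assigned region lay 25331 bp from its gene (KLF6, untreated STAT5B, fold 12.1). Just outside the 50 kb window, NR3C1 regions lay 51.1 kb from KLF13 within OTUD7A (fold 16.3 in N642H cells and 13.3 in WT cells).

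Of the 12 sites called in 2 or more lists, 10 held NR3C1 (58.5% of all such sites in the 8 lists). Of the 23 sites, 9 held both factors (13.1% of all), 12 held STAT5B alone (60.9%) and 2 held NR3C1 alone (26.1%). Such counts pool both lines and treatments, so the factors of a site need not come from the same cells. Of the 12 sites with STAT5B alone, 10 were called in 1 list (75.3% of all such sites). The genes were selected on these lists, so nothing is read from the shares. In the N642H line 4 of the 10 genes had an NR3C1 region that overlapped an untreated STAT5B region (KLF6, KLF7, KLF9 and KLF13), against a background of 6.95% of all genes. In the WT line 1 gene did (KLF13), against 1.48%. For STAT5B with prednisolone the numbers were 2 genes in N642H cells (KLF9 and KLF13, background 2.05%) and 1 in WT cells (KLF13, background 1.22%). The labels do not say which input library served as the control of each list, and what a control shared by the lists of a line would add to their overlap was not tested.

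**Figure D5:**
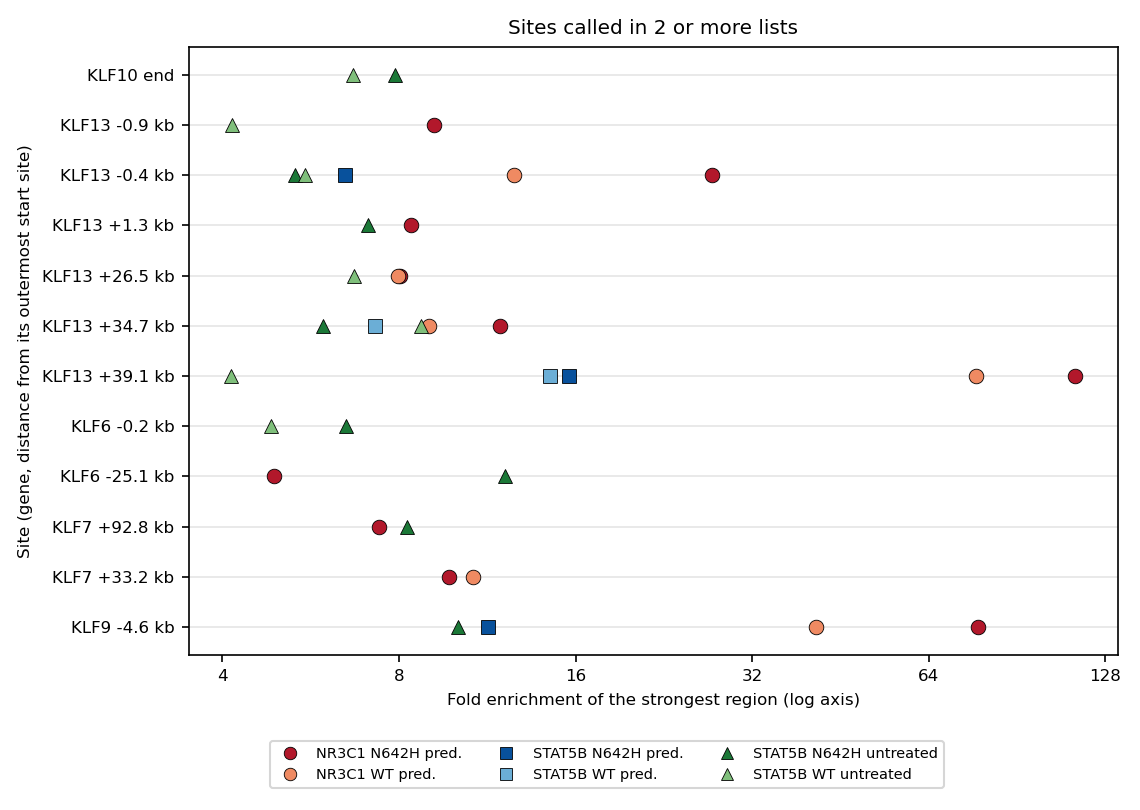
Fold enrichment (log axis) of the strongest region in each library at the 12 sites called in 2 or more lists, named by gene and distance from its outermost start site. Circles are NR3C1, squares STAT5B with prednisolone and triangles untreated STAT5B: the NR3C1 points reach 114 and 76.9 at KLF13 39.1 kb and 77.6 and 41.1 at KLF9, and a fold stands for its own list, so points of different lists are not ranked against each other.

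Between the lines, 6 of the 11 NR3C1 regions of N642H cells at these genes were also called in WT cells (30.7% of all N642H regions were), and 6 of the 6 regions of WT cells were called in N642H cells (89.9% of all). The NR3C1 regions found in N642H cells alone were those at KLF6, KLF12 and the KLF7 3′ end, and on either side of the KLF13 start, 918 bp before and 1484 bp after it. Their folds were between 4.91 and 9.80. The regions of N642H cells that were also called in WT cells had folds between 8.04 and 114. For untreated STAT5B, 4 of 16 regions of N642H cells were also called in WT cells (29.8% of all), and 4 of 10 of WT cells in N642H cells (61.4% of all). These shared regions were the KLF6 promoter, the one just outside KLF10, and the KLF13 sites 435 bp upstream and 34.7 kb inside the gene. With prednisolone 1 of 4 STAT5B regions of N642H cells was called in WT cells (41% of all) and 1 of 2 of WT cells in N642H cells (23.8% of all), in both cases the KLF13 site at 39.1 kb.

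With prednisolone against untreated cells, NR3C1 had 11 regions against 0 at these genes in the N642H line and 6 against 0 in the WT line, and 0 of the 11 and 0 of the 6 were called untreated (0.0693% and 0.201% of all). At these genes STAT5B had 4 of 446 regions with prednisolone and 16 of 4542 without it in the N642H line. Of the 4, 2 were called without prednisolone (70.4% of all), and of the 16, 2 were called with it (6.87% of all). In the WT line STAT5B had 2 of 766 regions with prednisolone and 10 of 2267 without it. The 2 were both called without prednisolone (59.3% of all), and 2 of the 10 were called with it (19.9% of all). No STAT5B region was called at KLF6, KLF7, KLF10 or KLF12 with prednisolone in either line. Every STAT5B region called with prednisolone at these genes overlapped an NR3C1 region of the same line. These were 4 of 4 in N642H cells and 2 of 2 in WT cells, against 53.6% and 18.4% of all STAT5B regions. They lay at KLF9 and KLF13 alone, and the 2 at KLF9 lay in the same NR3C1 region of N642H cells. In the other direction 3 of 11 NR3C1 regions of N642H cells overlapped one of STAT5B with prednisolone (7.76% of all) and 2 of 6 of WT cells did (14.1% of all). Untreated STAT5B was met by 6 of 11 NR3C1 regions of N642H cells (27.8% of all) and 4 of 6 of WT cells (16.3% of all). Of the untreated STAT5B regions, 7 of 16 in N642H cells overlapped NR3C1 (17.7% of all) and 4 of 10 in WT cells (7.19% of all). The prednisolone lists of STAT5B were the shorter ones in each line, and a region missing from a list was not shown to be unbound. Among the 446 strongest regions of each list, STAT5B had 4 with prednisolone and 3 without it in N642H cells. In WT cells these counts were 2 and 1.

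At the ends of these genes lay 9 of the 32 STAT5B regions and 4 of the 17 NR3C1 regions. Within 1 kb of either end of the gene lay 4 of 16 untreated STAT5B regions of N642H cells, where 55.7% of the whole list lay within 1 kb of some gene end. In untreated WT cells 4 of 10 did, where the whole list had 57.4%. For NR3C1 with prednisolone 3 of 11 regions of N642H cells and 1 of 6 of WT cells lay at gene ends, where the whole lists had 12.1% and 9.65%. STAT5B with prednisolone had 1 of 4 regions there in N642H cells and 0 of 2 in WT cells, where the whole lists had 46.4% and 58.7%. Start sites inside a gene span, as at KLF7 and KLF12, were not counted as ends, so regions close to them count as away from the ends. These shares were not tested against each other.

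The remaining members of the family and the related SP genes were followed by the same rule. Of 8 other KLF genes, 3 had an NR3C1 region with prednisolone in N642H cells (KLF5, fold 9.74, and 1 region of fold 12.7 shared by the neighbours KLF17 and KLF18), and 0 had one in WT cells. Untreated STAT5B lay at 3 of them in N642H cells (KLF5, fold 8.11, KLF16, fold 8.30, and KLF17, fold 6.00) and at 1 in WT cells (KLF16, fold 5.93). Over all genes the shares in these lists were 16.8% and 6.49% for NR3C1 with prednisolone (N642H and WT), and 39.5% and 23.2% for untreated STAT5B. The NR3C1 and untreated STAT5B regions at KLF5 lay 15.5 kb from the gene, both in N642H cells. Of 9 SP genes, 1 had an NR3C1 region in N642H cells (SP5, strongest fold 5.09) and 0 had one in WT cells. Untreated STAT5B lay at 6 of the 9 in N642H cells and at 3 in WT cells. Folds reached 10.9 in WT cells, 36.0 kb from SP1. STAT5B with prednisolone lay at 0 SP genes in N642H cells and at 2 in WT cells, where 4.77% and 9.6% of all genes were linked. The 2 were SP1 (fold 7.33, 36.1 kb from the gene) and SP7 (fold 5.59, 5.02 kb from it). With 8 and 9 genes the counts are a description, and their difference from the shares was not tested. The gene nearest to each of these regions was not determined, so some may lie nearer to another gene.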

How the data were processed

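Libraries were 1 per group, 8 ChIP and 4 input (inputs not analysed here). Per the submitters' processing notes the build was hg38 and BWA, MACS2 and deepTools were used; versions and settings are not given in the sources used here. For each peak the authors deposited a span, a summit, a score (10 times −log10 q), a fold enrichment (ratio), and the −log10 of p and of q. Regions on numbered chromosomes, X and Y were used. Gene spans and promoters came from RefSeq GRCh38.p14 tables, which gave no exons. Overlap meant at least 1 bp. Members and lists were chosen with earlier results of these data known. All members were named, with each one's strongest region per list and every site in 2 or more lists.

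Tags at each summit were solved from the deposited fold (pseudocount 1) and −log10 p under the Poisson formula. The solution fell on whole tags in 100% of 250 regions per list, with pileup steps of 0.894 (NR3C1) and 0.849 (STAT5B) in WT cells with prednisolone and 1 elsewhere. This was tested on simulated data. Lists differ in depth and length, so a fold or q stands for its own list and gives no size of a change. Python 3.11.15, numpy 2.4.6, pandas 2.3.3, scipy 1.17.1 and matplotlib 3.10.9 were used. The alternatives were windows of 20 and 100 kb, −log10 q or fold of at least 5, equal list lengths, assignment by any base, and stricter or looser overlap.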

Additional observations from a re-analysis of the deposited data

How the results depend on the processing

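Each count was compared with its main value under each alternative that applied to it. For counts per list and between lists, 162 of these comparisons stayed within 1.5 times and 22 did not. For counts per gene, 50 did and 10 did not. Counts of 0 that remained 0, as for untreated NR3C1, are among those that stayed. At equal list lengths KLF13 had 9 regions (24 before), KLF7 had 2 (7), KLF6 had 1 (5), and KLF10 and KLF12 had 0 (4 and 3). With the 100 kb window KLF7 had 13 and KLF11 had 2 (0 at 50 kb). KLF6 had 2 with the 20 kb window and 3 with either limit of 5. With a 100 kb window NR3C1 had 18 regions in N642H cells and 10 in WT cells (11 and 6 at 50 kb), and 10 of the 18 were called in WT cells. With −log10 q of at least 5, untreated STAT5B of WT cells had 5 regions (10 before). The STAT5B prednisolone regions also called untreated were then 1 in N642H cells and 1 in WT cells (2 and 2 before). With fold of at least 5 that count was 1 in WT cells. With the 446 strongest regions of each list, 3 NR3C1 regions at 2 genes were left in N642H cells. In WT cells 4 at 3 genes were left, and all 3 of N642H cells were called in WT cells. Untreated STAT5B then had 3 regions at 3 genes in N642H cells and 1 at 1 gene in WT cells, with 0 shared. STAT5B with prednisolone kept its 4 regions in N642H cells and its 2 in WT cells. STAT5B regions with prednisolone were called untreated in 1 case in N642H cells and 1 in WT cells. NR3C1 regions of WT cells met STAT5B in 1 case with prednisolone and in 0 untreated, and those of N642H cells met untreated STAT5B in 1. Requiring overlap of 50% of the shorter region left 1 WT STAT5B prednisolone region called untreated and 1 WT NR3C1 region called for STAT5B with prednisolone. The 20 kb window and assignment by any base kept the counts per list and between lists within 1.5 times. Summits within 500 bp did so for the counts between lists. The stricter limits and equal lengths take regions away by construction. No paired analysis was possible because each group held 1 library.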

Other observations

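Between 50 and 100 kb from the genes lay further NR3C1 regions, a range looked at after the values were seen. Upstream of KLF7, at 52.1 kb, NR3C1 with prednisolone had a fold of 15.3 in N642H cells (−log10 q 43.0) and 14.3 in WT cells (−log10 q 25.5), with summits at almost the same base, and untreated STAT5B of N642H cells had one of 4.30. At 67.0 kb the NR3C1 folds were 9.13 in N642H cells and 11.3 in WT cells. These lay at least 256462 bp from CPO, the nearest other protein-coding gene, and the NR3C1 folds at 52.1 kb were above those of the NR3C1 regions within KLF7 in the same list. On the other side, 80.0 kb from KLF7 and 24615 bp from CPO, NR3C1 of N642H cells had a fold of 6.89. Near KLF9, 66.2 kb from the gene, NR3C1 had a fold of 12.7 in N642H cells (−log10 q 24.5) and 6.31 in WT cells (−log10 q 4.68), at least 48114 bp from TRPM3.

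Downstream and upstream of KLF13 the same range held an NR3C1 pair at 51.1 kb within OTUD7A (fold 16.3 in N642H cells and 13.3 in WT cells). On the other side, 60.7 kb away, N642H cells had NR3C1 (fold 10.1) and untreated STAT5B (fold 5.06), with another NR3C1 region at 60250 bp (fold 7.2). At 62.6 kb untreated STAT5B of N642H cells (fold 4.80) lay beside STAT5B of WT cells with prednisolone (fold 6.89).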
